A study of Mus musculus with 27 samples.

Results

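Retinoic acid was the single medium factor by which condition IM3 differed from condition IM1, and this comparison of mouse bulk RNA-seq libraries covers 6 of the 27 libraries of the series, the 3 of IM3 and the 3 of IM1. They were chosen by their sample titles. All cells came from XY embryonic stem cells (ESCs) of a C57BL/6 x CBA F1 background that carry the TESCO-CFP reporter, which marks Sertoli cells, and the R26-rtTA allele. The study names a single clone for its experiments and clone 7 for most of the differentiation work. The sample titles do not say which clone a library came from. The 3 libraries of a group are described as biological replicates. If all came from that clone, their spread holds no variation between lines or animals. ESCs passed through an epiblast-like stage (EpiSC, 60 h, in medium that left out vitamin A, with 12 ng/ml bFGF, 20 ng/ml activin A and 1% knockout serum replacement). A mesoderm stage (M) of 36 h followed, in bFGF (20 ng/ml), BMP4 (10 ng/ml) and the phosphatidylinositol 3-kinase inhibitor LY294002 (10 µM). Then IM1 cells were kept for 3.5 days in a chemically defined medium with bFGF (5 ng/ml) and BMP4 (20 ng/ml), and IM3 cells in the same medium with 100 nM retinoic acid. For orientation, values are also given for M, the stage both groups came from, and for the other 3 media, which all held the same retinoic acid, bFGF and BMP4: IM2 with activin A (10 ng/ml), IM4 with the GSK3 inhibitor CHIR99021 (0.3 µM) and IM5 with both. The study compared these media to find one that leads mesoderm toward the region from which the gonads form.

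Retinoic acid is made from vitamin A by retinol and retinaldehyde dehydrogenases, binds nuclear receptors of the RAR family, which pair with RXR on DNA, and is broken down by enzymes of the CYP26 family. In the embryo it is made in the trunk mesoderm and kept out of the tail bud, where FGF and WNT signals maintain progenitors, and it is known for switching on Hox genes of the 3′ ends of their clusters. It is also known for its part in forelimb and heart field formation and in the epithelium that lines the body cavity.

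The deposited expected counts summed to 67899332 to 84876603 fragments in the IM1 libraries and to 39365494 to 55640100 in the IM3 libraries, so the IM3 values rest on shallower sequencing. Values below are normalized counts, that is expected counts scaled to a common effective library size, which do not correct for gene length and are compared within a gene only. The libraries of the groups also differed in 2 measures computed over each library. The GC trend, the median log2 deviation from the mean of all libraries of the 20% of genes highest in GC minus that of the 20% lowest, was 0.09 to 0.18 in IM1 and -0.34 to -0.08 in IM3, a difference of -0.33. The summed level of 6 red blood cell genes, adult globin genes among them, was 0.923 to 1.38 CPM (counts scaled to a common library total) in IM1 and 6.14 to 19.6 in IM3. Neither measure overlapped between the groups (two-sided exact permutation test, p = 0.10 for each, the smallest that 3 against 3 libraries can give). Of the other groups, M and IM4 were negative in GC trend and high in the red blood cell sum like IM3, and EpiSC, IM5 and iSLC (the Sertoli-like cells induced at the end of the protocol) were positive and low like IM1. IM2 was low in the sum and positive in GC trend in 2 of its 3 libraries, and ESC was high in the sum and of either sign in GC trend. AY036118, a non-coding gene that lies wholly within other genes, moved with the red blood cell genes except in IM5, where 1 library of 3 had counts. It had no count in any IM1 library and 6952, 3786 and 20314 normalized counts in IM3, at least 12977-fold higher than the level of 3 counts over the IM1 group. What sets these library differences cannot be told apart from the medium in the comparison of IM3 with IM1. Values of IM2 and IM5, which hold retinoic acid but lie with IM1 in the red blood cell sum, are therefore given beside part of the results. Some rises in IM3 were absent in IM2 or IM5, and for many genes those values are not given.

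**Figure D1:**
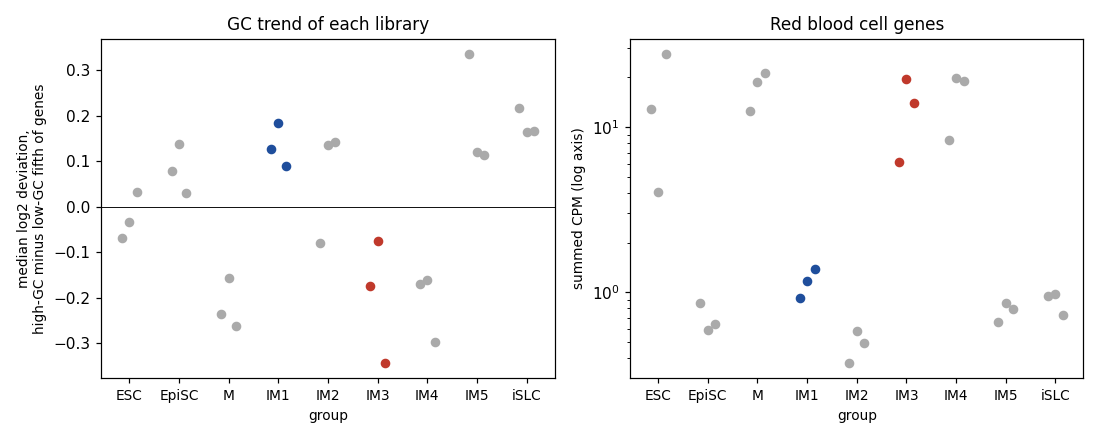
GC trend (left, log2 units) and summed CPM of 6 red blood cell genes (right, log axis) of each of the 27 libraries, 1 point a library, with IM1 in blue, IM3 in red and the other groups in grey. The 3 IM3 libraries lie below the 3 IM1 libraries in GC trend (-0.34 to -0.08 against 0.09 to 0.18) and above them in the red blood cell sum (6.14 to 19.6 against 0.923 to 1.38 CPM).

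Many genes differed between IM3 and IM1, most by under 4-fold and a few by far more. Of 20839 genes tested, 1321 (6.34%) passed the study's thresholds: the fold had to reach 2 and the adjusted p had to be no higher than 0.01, and the normalized count had to average 100 or more both across the 27 libraries and within IM1 or IM3. Of these, 545 (2.62% of the genes tested) were higher in IM3 and 776 (3.72%) were lower. Of these, 177 of the higher and 155 of the lower genes changed at least 4-fold, and 29 and 15 at least 16-fold. The 3 libraries of IM3 did not overlap those of IM1 in 1320 of the 1321 genes, against 57.7% of all genes tested. Without the count minimum, 1077 genes (5.17%) were higher and 1420 (6.81%) lower. For each count of list members below, the background is 2.62% higher and 3.72% lower, or 5.17% and 6.81% without the count minimum. The share called lower differed with base composition. Among the 20% of genes highest in GC 7.23% were called lower, and among the 20% lowest 1.52%. With each library's GC trend taken out, these shares were 4.29% and 1.71%, and 574 genes were higher and 661 lower in IM3. Of the 1321 genes, 1136 were then called in the same direction. In bulk RNA, a change in the share of cells of a type and a change in RNA per cell cannot be told apart, and this holds for every gene below.

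The receptor gene that is itself a target of retinoic acid rose sharply. *Rarb*, which encodes retinoic acid receptor beta had 119.5, 75.5 and 65.5 normalized counts in IM1 and 4215, 4581 and 4685 in IM3. This was the seventh largest rise among the called protein-coding genes whose libraries did not overlap and which lie mostly outside other genes (log2 fold change 5.71 ± 0.19 (SE), adjusted p 2.4e-18). *Rarb* lies at chr14:16430839-16819156 (GRCm38, minus strand), and 38.4% of its exon length overlaps *Top2b* or Gm48162 on the other strand. Whether the counts used strand is not stated, and *Top2b* had 9981 ± 196 normalized counts in IM1 and 12719 ± 908 in IM3 (mean ± SD, n = 3). *Rarb* stood at 32.2 in M, 2992 in IM2, 3819.8 in IM4 and 2011 in IM5 (means of 3 libraries), so that every group with retinoic acid lay above IM1. The other receptors moved less. *Rarg*, another retinoic acid receptor, had 5281, 5098 and 4762 in IM1 and 2649, 2639 and 2494 in IM3 with no overlap, just short of the 2-fold threshold (-0.96 on the log2 scale). *Rara* and *Rxra* differed by 0.12 and 0.16. *Rxrg* had 16.7, 16.2 and 14.9 in IM1 and 43.0, 44.6 and 59.6 in IM3, under the count minimum in both groups. The nuclear receptor partner *Nrip1*, a known retinoic acid target, differed by 0.83. *Rxrb*, *Ncoa1*, *Ncoa2* and *Ncor1* differed by -0.20, 0.79, 0.04 and 0.11. Of 11 receptors and cofactors *Rarb* was the 1 called, against 6.34% of all genes tested.

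Enzymes that remove retinoic acid rose. *Cyp26b1* was 215, 248 and 235 in IM1 and 5469, 5828 and 5744 in IM3, log2 fold change 4.603 ± 0.30 (SE), adjusted p 1.4e-12. *Cyp26a1*, its paralog, was 532, 417 and 465 in IM1 and 1231, 1200 and 1188 in IM3, a smaller rise of 1.36 ± 0.15 (SE). The paralogs differed in history, since *Cyp26a1* stood at 11242 in M, above every IM group, whereas *Cyp26b1* stood at 120.2 there. They also differed across the other media with retinoic acid. *Cyp26a1* was 2748 in IM2, 1849 in IM4 and 2611 in IM5, all above its IM3 mean of 1206, and *Cyp26b1* was 4006, 4135 and 2179.7, all below its IM3 mean of 5680.1. *Cyp26c1* stayed between 5.80 and 12.6 normalized counts in all 6 libraries. *Dhrs3*, a reductase that turns retinaldehyde back into retinol, was 245, 237 and 199 in IM1 and 1462, 1712 and 1562 in IM3 (log2 fold change 2.79 ± 0.15 (SE), adjusted p 3.2e-14). Of the cellular binding proteins, *Fabp5* rose (2724, 3063 and 2901 to 5917, 6635 and 5960.2, log2 fold change 1.09). *Crabp1*, which carries retinoic acid in the cytoplasm, fell (1577, 2309 and 2027 to 793, 785 and 659.5, log2 fold change -1.40). *Crabp2* differed by 0.28 (adjusted p 0.042). Of 6 binding and degradation genes, 3 were higher and 1 was lower, with a median log2 fold change of 0.69 against 0.00 over all genes tested.

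The synthesis and storage genes went both ways, with 2 of 10 higher (*Dhrs3* among them) and 2 lower. *Rdh10*, the retinol dehydrogenase of the first step, fell from 2651, 1981 and 2168 in IM1 to 992, 913 and 997 in IM3. The retinaldehyde dehydrogenases of the next step split. *Aldh1a3* fell from 1133, 1826 and 1880.1 to 119.6, 98.1 and 94.4 (log2 fold change -3.94 ± 0.18 (SE), adjusted p 6.6e-16). *Aldh1a1* rose from 13.2, 7.06 and 15.7 to 135, 101 and 166 (log2 fold change 3.504 ± 0.31 (SE), adjusted p 3.7e-10), at a low level throughout and called only through its higher level in other groups, since the call was lost when only IM1 and IM3, or only IM1 to IM5, were fitted. *Aldh1a7*, a close copy of *Aldh1a1*, rose as well (14.1, 12.7 and 14.9 to 323, 359.9 and 372), and how fragments shared by near-identical copies were split is uncertain. *Aldh1a2*, the main enzyme of trunk mesoderm, was 449.9, 663 and 639.7 in IM1 and 853, 1041 and 925 in IM3, without overlap but under 2-fold (0.68 on the log2 scale). It averaged 127 in IM2, 335 in IM4 and 98.3 in IM5. The retinol carrier gene *Rbp4* differed by 0.04. *Stra6*, the retinol uptake receptor, *Lrat* and *Bco1* had at most 93.7, 10.8 and 30.7 normalized counts in any of the 6 libraries and were not called.

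**Figure D2:**
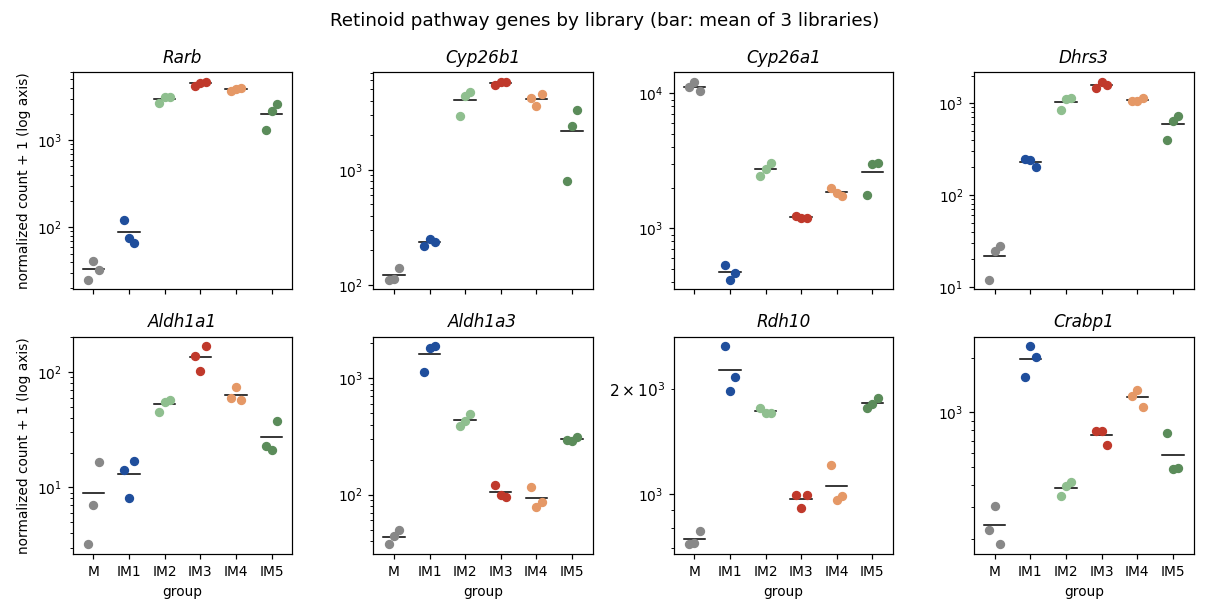
Normalized count plus 1 (log axis) of 8 retinoid pathway genes in each library of M and IM1 to IM5, 1 point a library with a bar at the mean of 3. *Rarb* (86.8 ± 28.7 in IM1, 4494 ± 247 in IM3, mean ± SD), *Cyp26b1*, *Cyp26a1*, *Dhrs3* and *Aldh1a1* lie higher in all 4 groups with retinoic acid than in IM1, and *Aldh1a3*, *Rdh10* and *Crabp1* lie lower.

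A retinoic acid response element is a direct repeat of a 6-base half-site. Promoters of RefSeq genes (GRCm38.p6, 250 bases before to 50 after each start) were searched on both strands for the half-sites AGGTCA, and also for AGTTCA, as well as GGGTCA, and lastly GGTTCA, each half-site free to pair with any other and repeated with 5 or 2 bases between them. Among 13644 tested genes with a promoter in the table, 26 (0.191%) held such a repeat. Of 374 genes higher in IM3 with a promoter, 4 (1.07%) did, and of 543 genes lower in IM3, 1 (0.184%) did. The 4 are *Rarb*, *Cyp26a1*, *Ppbp* and *Hbb-y*, all with 5 bases between half-sites, a spacing found in 11 of the 13644 promoters (0.0806%). *Rarb* and *Cyp26a1* also stand in the list of known retinoic acid targets used below, so the share of 1.07% is not independent of that knowledge. The gene that was lower is *Slc7a7*, with a spacing of 2. The stretches of *Rarb* and *Cyp26a1*, genes of the pathway, and of *Ppbp*, the second largest rise, are shown 5′ to 3′ on the strand of the gene, with the whole repeat in capitals. They lie at chr14:16575477-16575569 (minus strand, repeat 53 to 37 bases before the start), chr19:37697736-37697807 (plus strand, 32 to 16 bases before) and chr5:90768268-90768328 (plus strand, 246 to 230 bases before).
Rarb: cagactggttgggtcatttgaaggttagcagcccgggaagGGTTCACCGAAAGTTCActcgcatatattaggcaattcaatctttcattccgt
Cyp26a1: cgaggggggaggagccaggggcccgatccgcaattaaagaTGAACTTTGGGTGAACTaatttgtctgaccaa
Ppbp: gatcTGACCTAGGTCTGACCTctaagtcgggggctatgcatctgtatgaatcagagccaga
In *Rarb* the half-sites read along the gene, and in *Cyp26a1* and *Ppbp* they read on the other strand. A match of these letters is a description of the sequence and does not show binding, and other arrangements or sites outside the window were not searched.

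*Ppbp* is the platelet chemokine gene known as pro-platelet basic protein. It had 65.9, 9.88 and 0.829 normalized counts in IM1 and 2641, 2330.1 and 2599 in IM3 (log2 fold change 6.70 ± 0.33 (SE), adjusted p 2.7e-15). It was as high in IM2 (2616), and no other platelet gene of its list was called higher. *Itga2b* fell (-1.75), *Gp1ba* differed by 0.74, *Itgb3* by -0.93, and *Pf4*, *Gp9*, *Gp6* and *Treml1* were too low to test, with at most 5.80 normalized counts in any of the 6 libraries. *Hbb-y*, an embryonic globin, had 24.6, 35.3 and 33.1 in IM1 and 324, 373 and 401 in IM3 and is taken up with the blood genes.

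Other genes known as targets of retinoic acid rose with these. Of a list of 20, which also holds *Rarb*, *Cyp26a1* and *Dhrs3*, 10 were higher, against 2.62% of all genes tested, and the median log2 fold change was 1.38. The homeobox cofactors *Meis1* and *Meis2*, which pair with HOX proteins, were among them. *Meis1* had 917, 762 and 639.7 in IM1 and 6128, 6278 and 6521 in IM3 (log2 fold change 3.03 ± 0.10 (SE), adjusted p 1.3e-18), and *Meis2* rose by 2.23 on the log2 scale. The orphan receptors *Nr2f1* (39.5, 50.8 and 48.9 to 398, 370.3 and 341) and *Nr2f2* (893, 885 and 844 to 2539.8, 2752 and 2625) rose too. *Nr2f2* had 1167, 1095 and 1195 in IM2, above IM1, and 810, 857 and 977 in IM5, overlapping IM1. *Tgm2*, a transglutaminase, rose by 1.05, a call lost without IM1 replicate 3 (0.95) or IM3 replicate 1 (0.99). *Stra8*, named for its response to retinoic acid and known from germ cells at meiotic entry, had 0.879, 0 and 0.829 in IM1 and 23.1, 37.2 and 39.2 in IM3. It did not reach the count minimum in either group, and no overlap was seen. *Tshz1*, *Zfp503*, *Zfp703* and *Cdx1* of the same list differed by -0.47, -0.56, 0.00 and 0.12.

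The Hox genes split by their position in the clusters. Of 15 genes of paralogs 1 to 5, 6 rose (median 0.96), against 2.62% of all genes tested. Of 12 genes of paralogs 6 to 9, 8 fell (median -1.69), and of 12 genes of paralogs 10 to 13, 7 fell (median -3.14). Over all genes tested 3.72% fell. Without the count minimum the falls were 9 of 12 and 11 of 12. The rises sat mainly in the Hoxa cluster. *Hoxa4* had the largest rise, 14.9, 19.1 and 19.1 in IM1 and 563, 726 and 609 in IM3 (log2 fold change 5.14 ± 0.22 (SE), adjusted p 2.7e-16). *Hoxa2*, *Hoxa3* and *Hoxa5* rose by 3.70, 2.59 and 1.54 on the log2 scale.

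In the other clusters *Hoxb4* was called among the anterior genes. It rose from 318, 312 and 331 to 877, 925 and 798 (1.44). *Hoxb2* and *Hoxb3* had no overlap between groups but stayed under 2-fold (0.96 and 0.85), and both passed with the GC trend taken out (1.09 and 1.04). *Hoxb1* stood at 3.52, 2.12 and 11.6 in IM1 and 48.3, 68.4 and 71.2 in IM3, a log2 fold change of 3.43 that was not called because both groups were under the count minimum, and at 638 in M. *Hoxc4*, *Hoxc5*, *Hoxd1*, *Hoxd3*, *Hoxd4* and *Hoxb5* differed by between -0.24 and 0.28 and were not called. Paralog 5 was thus the last position with a rise, and *Hoxa5* (181, 249 and 237 in IM1, 676, 649.8 and 616 in IM3) and *Hoxa7* (479.8, 517 and 507 in IM1, 119.6, 161 and 159.8 in IM3) of the same cluster changed in opposite directions.

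Genes nearer the 5′ ends fell. *Hoxb6*, *Hoxc6*, *Hoxa7* and *Hoxb7* fell by 1.84, 1.59, 1.79 and 1.34 on the log2 scale, and *Hoxb8* by 2.72. *Hoxa9* fell from 1693, 1918 and 1849 to 281, 293 and 378, and *Hoxc9* from 764, 781 and 839 to 113, 104 and 129. *Hoxa10*, *Hoxa11* and *Hoxa13*, which pattern the hind limb, the urogenital tract and the digits, fell by 2.27, 3.18 and 3.12. *Hoxc10* had 1316, 1406 and 1373 in IM1 and 108, 95.2 and 123 in IM3 (log2 fold change -3.65 ± 0.13 (SE), adjusted p 4.8e-18). *Hoxd13* had 881, 1004 and 1046 in IM1 and 86.1, 75.8 and 144 in IM3. *Hoxc11* stood at 332, 325 and 329.8 in IM1 and 10.5, 14.9 and 16.0 in IM3, not called because its mean over all libraries was 60.8. *Hoxc12* had 21.1, 15.5 and 24.0 in IM1 and no count in IM3, at least 15.6-fold lower by 3 counts over the group. *Hoxc13*, at 209 ± 38.3 in IM1 and 44.1 ± 25.0 in IM3, was not called for the same reason (67.4). *Hoxb9*, *Hoxd10* and *Hoxd11* fell by 1.10, 1.93 and 2.29, and *Hoxa6*, *Hoxc8*, *Hoxd9* and *Hoxd12* were not called (-1.89, -0.81, -0.80 and -3.16). The exceptions were *Hoxd8* (0.10) and *Hoxb13* (-0.23), whose libraries overlapped. *Hoxa11* overlaps an antisense gene, Hoxa11os, over 35.0% of its exon length, and that gene fell as well (1004 ± 49.0 in IM1, 88.1 ± 18.1 in IM3).

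In the media with activin A the levels of some Hox genes lay apart from IM3. *Hoxa13* averaged 1804 in IM1, 209 in IM3, 802 in IM2 and 1264 in IM5, and *Hoxd11* 586, 119.8, 494 and 666. *Hoxc8* averaged 812, 464, 112 and 144 in the same order, lowest in the media with activin A. *Hoxa5* had 215, 299 and 343 in IM2 and 141, 205 and 273 in IM5, overlapping IM1 in both. These groups share the IM1 libraries as their base and are given side by side.

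**Figure D3:**
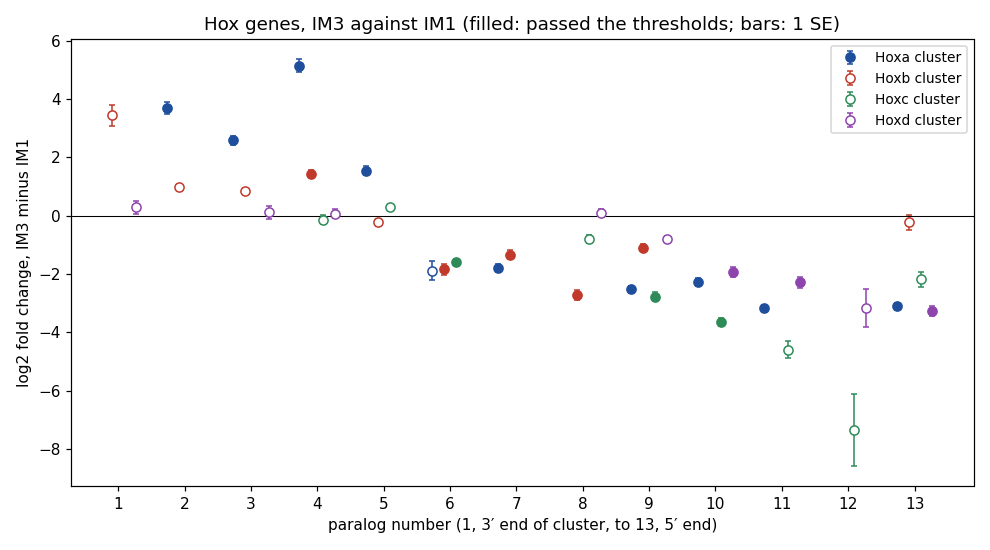
Log2 fold change of IM3 over IM1 (y axis, bars 1 SE) of 38 Hox genes by paralog number (x axis), coloured by cluster, filled where the thresholds were passed. Filled points lie above 0 at paralogs 2 to 5, led by *Hoxa4* at 5.14, and below 0 from paralog 6 on.

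Genes of the caudal progenitors of the tail bud fell. Of 20 genes 9 fell (median -2.68), against 3.72% of all genes tested, and without the count minimum 16 fell. *Sox3*, a SOXB1 factor of neural and caudal progenitors, had the largest fall by the same naming rule: 1083, 1473 and 1542 in IM1 and 19.9, 4.46 and 21.8 in IM3 (log2 fold change -6.41 ± 0.25 (SE), adjusted p 3.8e-17). *Nkx1-2*, a homeobox gene of the caudal epiblast, went from 4426, 3476 and 3685 to 119, 96.7 and 97.3 (log2 fold change -5.19 ± 0.16 (SE), adjusted p 3.6e-19). *T* (brachyury), the T-box factor of the primitive streak and tail bud, went from 294, 265 and 324 to 3.15, 16.4 and 13.1 (log2 fold change -4.86 ± 0.33 (SE), adjusted p 2.1e-12). The 3 libraries of each group lay well apart in all 3 genes. *T* had already come down from 26796 in M, whereas *Sox3* was 102 in M and thus higher in IM1 than at the stage before.

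*Cdx2*, the caudal homeobox factor that acts upstream of posterior Hox genes, had 6997, 7500.1 and 8304 in IM1 and 389, 323 and 324 in IM3 (log2 fold change -4.45 ± 0.09 (SE), adjusted p 1.5e-22). It was 7292 in M, so that the IM1 level was near that of M and the IM3 level far under it. Of the others, *Evx1* went from 879, 797 and 926 to 79.8, 72.9 and 71.2, and *Greb1*, *Sall4* and *Fst* fell by 2.34, 1.57 and 1.46 on the log2 scale. *Sox2*, the SOXB1 partner of *Sox3*, went from 213, 196 and 240.3 to 79.8, 106 and 79.9. The fibroblast growth factors of the tail bud were nearly silent in both groups. *Fgf8* stood at 50.1, 45.2 and 54.7 in IM1 and 3.15, 4.46 and 0 in IM3 against 4559 in M, and *Fgf17* at 43.1, 30.4 and 51.4 and 3.15, 7.43 and 0. *Wnt3a* had at most 4.46 normalized counts in any of the 6 libraries. *Cdx1* did not follow *Cdx2* (25.5, 18.4 and 13.3 in IM1, 26.2, 11.9 and 21.8 in IM3). *Wnt5b*, *Sp8* and *Epha5* differed by -0.92, -3.03 and -3.69 and *Wnt8a*, *Sp5* and *Lin28a* by -1.07, -1.84 and -0.97, without a call. *Cdx4* had 7.91, 7.06 and 3.31 in IM1 and no count in IM3. In the media with activin A *Cdx2* averaged 1255 in IM2 and 1893 in IM5, and *Sox3* 457 and 904, between their IM1 and IM3 means. *Sox2* and *Fst* averaged 819 and 545 in IM2, above their IM1 means of 216 and 232. *Cdx1*, *Sp5* and *Wnt8a* were above IM1 in IM2 as well, at 141, 199 and 79.8 against 19.0, 72.2 and 26.1.

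Of the genes of paraxial mesoderm, which forms the somites, the early ones were low. *Tbx6* had 51.0, 49.4 and 40.6 in IM1 and 19.9, 31.2 and 20.3 in IM3, *Msgn1* at most 1.66 and *Mesp2* at most 7.77 in any of the 6 libraries. *Meox1*, of the somites, had 125, 163 and 162 in IM1 and 254, 357 and 244 in IM3 and was not called (0.91). Of 16 genes tested 2 fell, against 3.72% of all genes tested. *Foxc1* went from 1445, 1682 and 1905 to 312, 324 and 357, and *Dll1* from 133, 127 and 114 to 82.9, 35.7 and 49.4. The *Dll1* call was lost without IM3 replicate 2 or 3, with only IM1 and IM3 or only IM1 to IM5 fitted, and with the GC trend taken out, where *Foxc2*, the paralog of *Foxc1*, was called higher (874, 1143 and 1125 in IM1, 1790.5, 1749 and 1554 in IM3, 0.70 without that correction and 1.19 with it).

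In the lateral plate and limb list the T-box pair of the limbs changed in opposite directions. *Tbx5*, which marks forelimb and heart fields, had 129, 133 and 134 in IM1 and 2796, 3261 and 2551 in IM3 (log2 fold change 4.44 ± 0.13 (SE), adjusted p 1.8e-19). *Tbx4*, which marks hindlimb field and allantois, had 17613, 22011 and 20396 in IM1 and 622, 623 and 540.4 in IM3 (log2 fold change -5.07 ± 0.11 (SE), adjusted p 9.6e-22). *Tbx4* was near absent in M (27.8) and *Tbx5* as well (31.4). In IM2 *Tbx5* averaged 1191 and *Tbx4* 2647, and in IM5 556 and 5400.3, so that both genes lay between the IM1 and IM3 levels in both media with activin A. Of 20 genes, 2 rose, *Tbx5* and *Fgf10* (349, 244 and 228 in IM1, 1449, 1326 and 1403 in IM3), a growth factor that starts limb outgrowth. Another 11 fell, and the median of the list was -1.14. Over all genes tested 2.62% rose and 3.72% fell. Unlike *Tbx5*, *Fgf10* was higher in M (7357, 6431 and 6929) than in either group, so IM3 lay above IM1 but below the stage before.

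Further hindlimb genes were among the 11. *Pitx1*, the hindlimb homeobox gene, went from 10987, 11052 and 10953 to 2418, 2775 and 2106 (-2.18), and *Isl1* from 1178, 1210 and 1253 to 229, 213 and 272 (-2.35). *Pitx1* averaged more with activin A (8119.9 in IM2 and 16621 in IM5). *Hand1*, *Vcam1* and *Prrx1*, genes of extraembryonic mesoderm, allantois and limb mesenchyme, fell by 1.63, 1.73 and 1.502. *Hand2* and *Msx1* fell by 1.01 and 1.27, and *Prrx2* from 1636, 2441 and 2492 to 883, 993 and 798, calls that were lost with the GC trend taken out (-0.71, -0.95 and -0.85). The call of *Prrx2* was also lost with DESeq2 and an offset for gene length (-0.98), and that of *Hand2* lost without IM1 replicate 3 (-0.96) or IM3 replicate 3 (-0.94). *Tbx20*, *Tbx3*, *Tbx2*, *Irx3* and *Irx5* were not called.

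Genes of the mesothelium, the epithelium that lines the body cavity and its organs, rose. Of 20 genes 11 were higher and 1 was lower, against 2.62% and 3.72% of all genes tested, with a median log2 fold change of 1.46. *Upk3b*, a uroplakin and mesothelial marker, had the largest rise by the same naming rule: 409.5, 162 and 143 in IM1 and 24321, 25677 and 23537 in IM3 (log2 fold change 6.71 ± 0.22 (SE), adjusted p 1.9e-18). IM1 replicate 1 was the highest of its group, and even so the groups were far apart. *Upk3b* averaged 24.5 in M, 6494 in IM2, 20511 in IM4 and 2857 in IM5.

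*Muc16*, a mucin of mesothelial surfaces, went from 12.3, 7.06 and 4.14 to 342, 352 and 408 (log2 fold change 5.55 ± 0.30 (SE), adjusted p 2.6e-14), and *Upk1b*, the partner uroplakin, from 272, 222 and 254 to 2125, 2134 and 2038. *Bnc1* (basonuclin 1) went from 1218, 667 and 852 to 8675, 8971 and 8992 and *Lrrn4* from 3011, 2319.8 and 2489 to 11616, 12387 and 11876. *Msln* (mesothelin) had 38.7, 34.6 and 19.9 in IM1 and 269, 283 and 286 in IM3 with no overlap (3.16), not called because its mean over all 27 libraries was 98.1. Genes of the epithelial surface rose with them: *Ezr*, *Dsp*, *Crb2* and *Podxl* by 1.75, 1.61, 1.31 and 1.11. The keratins *Krt8*, *Krt18* and *Krt19* of simple epithelia did not, with -0.77, -0.76 and -0.07. *Krt7*, another such keratin, was higher without overlap (579, 508 and 467 in IM1, 1004, 894 and 777 in IM3). It was not called, though it was with DESeq2 and an offset for gene length (1.24). *Cdh1* (E-cadherin) fell from 7249, 6188 and 6463 to 2474, 2025 and 1902. *Gpm6a*, another mesothelial gene, differed by 0.06. In IM2 *Bnc1* and *Upk1b* averaged 1474 and 577, far nearer to their IM1 means (912 and 249) than to their IM3 means (8879 and 2099). In IM5 *Bnc1* had 1224, 1019 and 907 and *Upk1b* 353, 250 and 222, overlapping IM1 in both genes. *Lrrn4*, *Dsp*, *Crb2* and *Podxl* also overlapped IM1 in IM5, whereas *Upk3b* and *Msln* lay above IM1 there. *Ezr* had 11741, 13066 and 12570 in IM2 and 8868, 8788 and 7859 in IM5, against 9010, 7977 and 8234 in IM1.

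The genital ridge, from which the gonads form, arises from that epithelium, and its genes split. Of 18 genes 8 were higher and 1 was lower (median 1.05), against 2.62% and 3.72% of all genes tested. *Wt1*, the zinc finger factor needed for kidney and gonad, had 544, 393 and 432 in IM1 and 9266, 10501 and 9174 in IM3 (log2 fold change 4.41 ± 0.11 (SE), adjusted p 3.3e-21). It averaged 2066 in IM2, 7717 in IM4 and 1318 in IM5. *Tcf21*, a factor of the epicardium and visceral mesoderm, went from 39.5, 14.1 and 14.1 to 614, 766 and 619 (log2 fold change 4.91 ± 0.23 (SE), adjusted p 9.9e-16), and *Tbx18*, of the urogenital and epicardial mesenchyme, from 217, 251 and 248 to 1809, 2022 and 1817 (2.98). *Gata4* and its cofactor *Zfpm2* rose by 1.603 and 1.47, with 8181 ± 874 normalized counts of *Gata4* in IM1 and 24855 ± 2049.9 in IM3 (mean ± SD, n = 3). *Lhx2* rose by 1.21. *Tbx18* had 364, 378 and 413 in IM2, above IM1, and 107, 128 and 116 in IM5, below IM1. *Lhx9* had 41.3, 49.4 and 63.8 in IM1 and 202, 260.2 and 171 in IM3, not called because its mean over all libraries was 61.3, and *Emx2* 94.9, 61.4 and 63.8 and 144, 156 and 105. *Nr5a1* (SF1), the receptor that defines gonadal and adrenal primordia, was at 9.67, 14.8 and 11.6 in IM1 and 7.35, 4.46 and 13.1 in IM3, overlapping and near background. *Gadd45g* fell (-1.43), and *Six4* was not called.

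**Figure D4:**
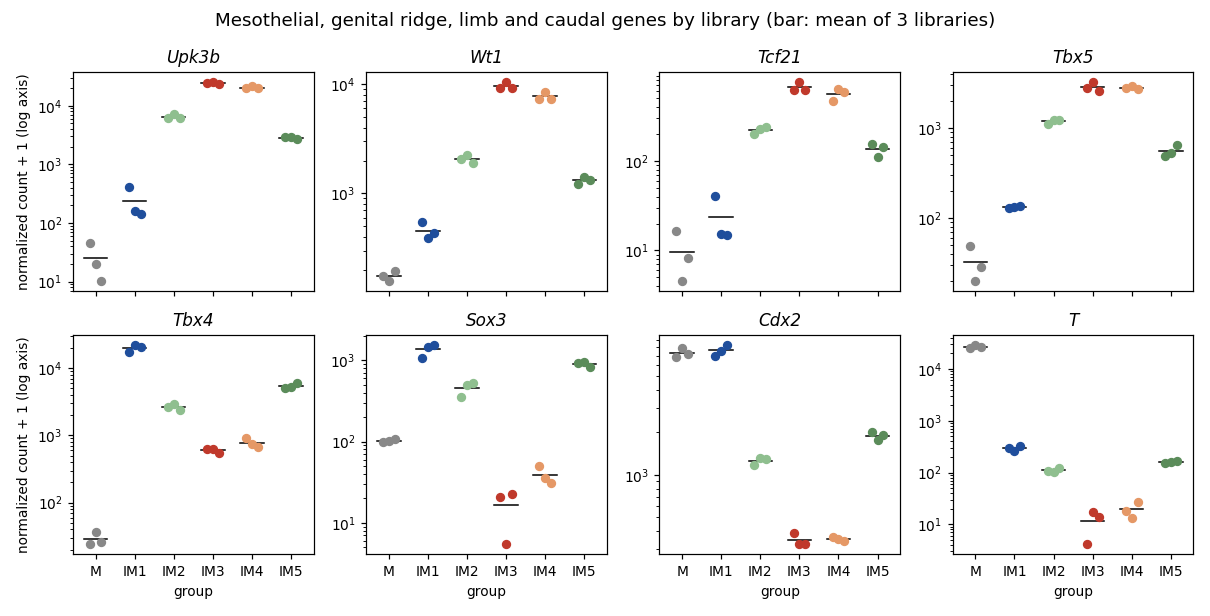
Normalized count plus 1 (log axis) of 8 genes of mesothelium, genital ridge, limb fields and caudal progenitors in each library of M and IM1 to IM5, 1 point a library with a bar at the mean of 3. Among IM1 to IM5, *Upk3b*, *Wt1*, *Tcf21* and *Tbx5* are lowest in IM1 and highest in IM3, *Tbx4*, *Sox3* and *Cdx2* are highest in IM1 and lowest in IM3, with IM2 and IM5 between, and *T* averages 294 in IM1 and 10.9 in IM3 after 26796 in M.

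The labels call both groups intermediate mesoderm, the strip between somites and lateral plate that forms the kidneys and gonads. Its other defining genes were low. *Pax2* stood at 24.6, 26.1 and 25.7 in IM1 and 7.35, 2.97 and 1.45 in IM3, and *Pax8* at most 3.52 in any of the 6 libraries. *Lhx1* went from 257, 507 and 420.1 to 48.3, 46.1 and 56.7 (-2.98), after 7330.4 in M, and *Osr1* from 202, 228 and 259 to 66.1, 89.2 and 49.4 (-1.76). Among 16 kidney and nephric duct genes 6 fell (median -1.11), against 3.72% of all genes tested. *Six2*, of nephron progenitors, went from 321, 393 and 421 to 47.2, 65.4 and 39.2, and *Eya1* and *Ret* fell by 1.17 and 1.25. *Cited1* fell by 1.05, a call lost with the GC trend taken out (-0.69) and without IM1 replicate 2 (-0.97) or IM3 replicate 3 (-0.96). *Osr1* and *Six2* averaged more with activin A, at 258 and 504 in IM2. Of the defining intermediate mesoderm genes *Wt1* alone was thus abundant in IM3.

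Of 21 Sertoli cell genes tested, 6 rose and 1, *Cited1*, fell, against 2.62% and 3.72% of all genes tested. The 6 are *Aldh1a1*, *Cyp26b1*, *Wt1* and *Gata4*, described above, and *Erbb4* (19.3, 24.7 and 36.5 in IM1, 136, 116 and 144 in IM3) and *Sox8* (130.1, 164 and 161 in IM1, 312, 379 and 328 in IM3). The *Erbb4* call was lost when only IM1 and IM3, or only IM1 to IM5, were fitted, and with DESeq2 and an offset for gene length (2.09), and the calls of *Aldh1a1* and *Cited1* were lost under the settings given above. *Dmrt1* had 40.4, 19.1 and 28.2 in IM1 and 23.1, 47.6 and 24.7 in IM3, *Amh* 53.6, 63.5 and 62.1 and 15.7, 28.3 and 21.8, and *Fgf9* 4.39, 11.3 and 4.97 and 47.2, 66.9 and 39.2, all under the count minimum. *Dhh*, a hedgehog ligand of Sertoli cells, had 132, 184 and 149 in IM1 and 48.3, 53.5 and 53.7 in IM3 (-1.58). It was not called because its mean over all libraries was 81.5, and it was called lower when only IM1 and IM3, or only IM1 to IM5, were fitted. *Sox9* was abundant in both (6399.6 ± 1004 in IM1 and 5394 ± 735 in IM3, adjusted p 0.054). On the ovarian and steroidogenic side, 2 of 12 genes rose and 1 fell, against 2.62% and 3.72% of all genes tested. *Rspo1* went from 135, 124 and 106 to 363, 429.7 and 399. It had 70.4, 70.4 and 84.6 in IM2, below IM1, and 141, 89.4 and 94.4 in IM5. *Star* rose by 1.01 and *Wnt4* fell by 1.11, and both calls were lost with the GC trend taken out (0.94 and -0.95). The call of *Star* was also lost without IM1 replicate 1 (0.998) or IM3 replicate 2 (0.997) and with no low-count filter (0.99), and that of *Wnt4* without IM3 replicate 3 (-0.99). *Foxl2* had at most 42.3 normalized counts in any of the 6 libraries.

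The endothelial list fell. Of 14 genes 10 were lower (median -1.38), against 3.72% of all genes tested. *Cdh5* (VE-cadherin) went from 5362, 6090.3 and 5993 to 1619, 1408 and 1425 (log2 fold change -1.97 ± 0.10 (SE), adjusted p 6.4e-15), and *Tie1*, an endothelial receptor kinase, from 3063, 3141 and 3222 to 942, 1014 and 819. *Sox17*, of arterial endothelium and of endoderm, went from 1029.9, 1242 and 1156 to 216, 168 and 200.5 (-2.54). *Pecam1*, *Kdr*, *Flt1*, *Erg* and *Tal1* fell by 1.55, 1.11, 1.37, 1.57 and 1.28. *Tek* and *Emcn* did not follow (0.51 and 0.90). The summed level of the 14 genes was 496 to 531 CPM in IM1 and 225 to 254 CPM in IM3, with no gene at 0 in either group. In the media with activin A *Cdh5* averaged 2490.5 in IM2 and 2675 in IM5, between the IM1 and IM3 means.

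Globin genes rose, embryonic and adult alike. The embryonic *Hbb-bh1*, *Hba-x* and *Hbb-y* were called higher, 3 of 9 primitive erythroid genes tested, against 2.62% of all genes tested. *Hbb-bh1* had 192, 254 and 279 in IM1 and 543, 668 and 749.6 in IM3, and *Hba-x* 138, 184 and 197 and 722, 813 and 665. Their IM2 means were 45.4 and 47.8, both under IM1, while *Gata1* and *Klf1*, the erythroid factors, stood at 9.67, 9.88 and 9.11 and 15.8, 22.6 and 20.7 in IM1 and at 9.45, 8.92 and 21.8 and 17.8, 20.8 and 21.8 in IM3. The *Hbb-y* call was lost without any 1 of the IM3 libraries, because its mean over all libraries (107) was near the minimum. Of 6 adult red blood cell genes, 2 were called, *Hbb-bs* and *Hba-a1* (2.69). *Hbb-bs* had 5.27, 1.41 and 2.49 in IM1 and 71.4, 416 and 219 in IM3. *Hbb-bt* had no count in IM1 and 9.45, 128 and 125 in IM3, at least 110-fold higher by 3 counts over the group. The globin copies share sequence, so how fragments were split among them is uncertain. *Hbb-bs* averaged 460.3 in M, which had no retinoic acid, 298 in IM4, and 0.997 and 0 in IM2 and IM5, which had it. It was thus high in groups where the red blood cell sum was high, a sum that holds the gene itself, and in IM1 and IM3 this and the medium cannot be told apart. *Ptprc* (CD45), a white blood cell marker, had 4.39, 0.706 and 1.66 in IM1, 27.3, 59.5 and 154 in IM3 and 60.4 in M, and *Tyrobp*, *C1qa* and *S100a8* had at most 6.30 in any of the 6 libraries. The part of red blood cell RNA in any other difference was not tested.

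Cardiac muscle genes rose in part. Of 18 genes 6 rose, all of them genes of sarcomere proteins, and 1, *Hopx*, fell. Over all genes tested 2.62% rose and 3.72% fell. *Myh6*, the atrial myosin heavy chain, had 278, 446 and 271 in IM1 and 2462, 1181 and 1655 in IM3 (log2 fold change 2.41 ± 0.27 (SE), adjusted p 2.6e-08), and *Myl7*, the atrial light chain, 604, 837 and 663 and 2523, 1164 and 1748. IM3 replicate 1 was the highest and replicate 2 the lowest of its group in both. *Actc1* and *Actn2* rose by 1.47 and 1.39, and *Myl4* from 901, 1024 and 907 to 2839, 1859 and 2243. *Ttn* rose by 1.04, a call lost without IM1 replicate 3 (0.90) or IM3 replicate 1 (0.65), with the GC trend taken out (0.96) and with DESeq2 and an offset for gene length (0.60). *Myh7* and *Tnnc1* overlapped between groups (0.06 and 0.12). The heart factor *Nkx2-5* had 107, 165 and 142 in IM1 and 67.2, 47.6 and 53.7 in IM3 and was not called, since its mean over all libraries was 51.6. *Myh6* averaged 182 in IM2, 393 in IM4 and 25.6 in IM5, all under its IM3 mean of 1766. Every IM2 and IM5 library was also below the IM1 libraries in *Myh6*, *Myl7*, *Myl4* and *Ttn*. *Myl7* had 306, 566 and 469 in IM2 and 104, 90.4 and 48.7 in IM5. *Actn2* overlapped IM1 in IM2 and IM5. The summed level of the 18 genes was 282 to 318 CPM in IM1 and 387 to 585 CPM in IM3. Of 12 smooth muscle genes 2 fell, against 3.72% of all genes tested. They were *Acta2* (smooth muscle actin, 106294 ± 6282 in IM1 and 46676 ± 5310.1 in IM3) and *Mylk* (-1.61).

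Among signalling genes, single ligands rose or fell. Among 13 FGF ligands tested, *Fgf1* (168, 198 and 187 to 812, 879 and 861), *Fgf2* (87.9, 93.9 and 88.7 to 266, 242 and 286) and *Fgf10* rose and *Fgf3* (390.2, 362 and 413 to 51.4, 41.6 and 53.7) and *Fgf15* (-1.92) fell. Of 16 genes that report or dampen FGF signalling through ERK, 2 fell, *Spry4* (-1.16) and *Etv1* (-1.35), against 3.72% of all genes tested. *Dusp6*, *Spry2* and *Etv5* differed by -0.32, -0.20 and -0.13. *Fgf18* had 33.4, 26.1 and 22.4 in IM1 and 232, 179.9 and 234 in IM3, with a mean over all libraries under the minimum (89.5). *Fgf1* had 169, 172 and 160 in IM2 and 102, 114 and 158 in IM5, none above the IM1 range.

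Among 14 Wnt ligands 3 rose and 4 fell. *Wnt5a*, the ligand of the tail bud and limb, went from 8847, 8824 and 9314 to 2924, 2656 and 2901 (log2 fold change -1.67 ± 0.06 (SE), adjusted p 2.4e-18). *Wnt3* and *Wnt6*, besides *Wnt4*, fell by 1.81 and 1.59, and *Wnt2b*, *Wnt9a* and *Wnt11* rose by 1.31, 1.16 and 1.17. The secreted Wnt antagonists moved in both directions. *Sfrp5* rose from 87.0, 85.4 and 54.7 to 1435, 1339.8 and 1230.4 (log2 fold change 4.14 ± 0.16 (SE), adjusted p 3.8e-17) and *Sfrp1* from 2889, 2241 and 2121 to 20085, 21362 and 20327 (log2 fold change 3.09 ± 0.09 (SE), adjusted p 2.7e-19), while *Dkk1* fell from 4419, 5801 and 5606 to 946, 898 and 931 (log2 fold change -2.51 ± 0.09 (SE), adjusted p 4.2e-18). *Rspo3*, which strengthens Wnt signals, fell by 2.29. The Wnt target *Lef1* fell by 1.19, *Axin2* lay just short of the threshold (-0.99), and *Tcf7* and *Znrf3* differed by 0.14 and 0.25.

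*Bmp2* went from 4791, 4664 and 4822 to 671, 543 and 567 (log2 fold change -2.995 ± 0.07 (SE), adjusted p 2.7e-21). Of 19 BMP genes 5 fell and 2 rose. With the GC trend taken out, *Bmp4*, *Smad6* and *Msx1* lost their calls and 2 of the 5 falls were left. The call of *Bmp4* was also lost without IM1 replicate 1 (-0.89) or IM3 replicate 2 (-0.99), and that of *Smad6* without IM1 replicate 2 or 3 (-0.997 and -0.99) or IM3 replicate 3 (-0.95). The direct BMP targets *Id1*, *Id2* and *Id3* differed by -0.75, 1.33 and 0.05, with a call for *Id2* alone. Of 14 genes of the Nodal and activin group 4 fell. *Eomes* went from 212, 221 and 291 to 51.4, 61.0 and 46.5 and *Lefty2* from 158, 174 and 196 to 43.0, 43.1 and 47.9, against 2030.3 and 624 in IM2 with activin A, and *Nodal* and *Fst* were the others. Of 16 Notch genes 4 fell and 1 rose. *Jag1* and *Heyl* fell by 1.14 and 1.38, and *Hey1* rose by 1.06, a call lost without IM3 replicate 2 (0.91). *Nrarp*, a Notch feedback gene, had 843, 1008 and 1137 in IM1 and 42.0, 44.6 and 56.7 in IM3, but 79.4% of its exon length lies in a gene on the other strand, Gm38287, which had no count in IM1 and 19.2 ± 24.8 in IM3.

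Of 15 cell cycle genes 1 fell, against 3.72% of all genes tested. It was *Cdkn1c* (p57), a brake on the cycle, from 30032, 39234 and 38319.9 to 7423, 8330.1 and 6822 (log2 fold change -2.25 ± 0.11 (SE), adjusted p 3.8e-15). *Mki67* and *Top2a* were higher without overlap but under 2-fold (0.74 and 0.52), and *Ccnd1* lower (-0.86). Of 12 stress and immediate early genes 6 fell. *Hspa1a*, a heat shock chaperone, went from 2032, 2621 and 2398 to 376, 451 and 293 and *Hspa1b*, its near copy, from 2986, 3848 and 3613 to 707, 733 and 594. *Egr1*, *Junb* and *Trib3* fell by 1.92, 1.70 and 1.94, and *Fos* by 1.08, short of 2-fold with the GC trend taken out (-0.99) and with DESeq2 and an offset for gene length (-0.84).

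In the extracellular matrix list 5 of 18 genes rose and 4 fell. Of the small proteoglycan genes, *Ogn* rose from 7.91, 6.35 and 4.97 to 203, 149 and 166, *Lum* from 35.2, 32.5 and 39.8 to 388, 485 and 350.1 and *Dcn* from 100.2, 85.4 and 90.3 to 981, 962 and 988. *Bgn*, another of them, differed by 0.20 and was not called. The *Ogn* call was lost when only IM1 and IM3, or only IM1 to IM5, were fitted, through the count minimum. *Postn* (periostin) rose from 4638, 4366 and 4499 to 39157, 42044 and 40974 (log2 fold change 3.18 ± 0.09 (SE), adjusted p 3.8e-20), and *Col3a1* by 1.11. *Vcan* and *Col4a1* fell by 1.29 and 1.22, and *Col4a2* and *Col5a1* by 1.12 and 1.03, both short of 2-fold with the GC trend taken out (-0.74 and -0.80). The call of *Col5a1* was also lost without IM3 replicate 3 (-0.99). Among adhesion and transition genes *Cdh3* (P-cadherin) rose by 1.19, and *Cdh1* and *Snai1* fell by 1.63 and 1.46. *Epcam* fell from 1388, 1507 and 1612 to 657, 581 and 587.

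Of the markers of lineages outside mesoderm, most of those called were lower. Of all genes tested 2.62% were called higher and 3.72% lower. Of 12 pluripotency genes 4 fell: *Pou5f1* from 1574, 1582 and 1704 to 269.7, 367 and 325, *Utf1* by 2.30, *Sox2*, and *Nanog* by 1.03, a call lost without IM3 replicate 3 (-0.93). Of 10 germ cell genes 2 fell, *Prdm1* (-1.59) and *Tfap2c* (-1.497). Of 12 neural genes tested 2 fell, *Zic2* and *Nptx1*, and *Sox1*, *Pax6* and *Pax7* had at most 14.9 normalized counts in any of the 6 libraries. Of 12 endoderm genes 3 fell, *Sox17*, *Cxcr4* (518, 637 and 597 to 94.5, 92.2 and 100.2) and *Foxa2*, the last short of 2-fold with the GC trend taken out (-0.89), and *Gata6*, also of mesoderm, rose by 1.15. *Afp* and *Ttr*, genes of visceral endoderm, were at 3133 ± 51.5 and 4647 ± 326 in IM1 and 3787 ± 209.6 and 2353 ± 249 in IM3. *Apoa1* had 3995, 4154 and 3703 in IM1 and 6513, 6437 and 5198 in IM3, without a call. The summed level of the 12 endoderm genes was higher in IM3 (433 to 476 CPM) than in IM1 (342 to 380 CPM), though 8 of them had a negative and 4 a positive log2 fold change. All annotated genes of the mitochondrial genome together made up 1.29% to 1.36% of counts in IM1 and 1.71% to 1.96% in IM3.

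**Figure D5:**
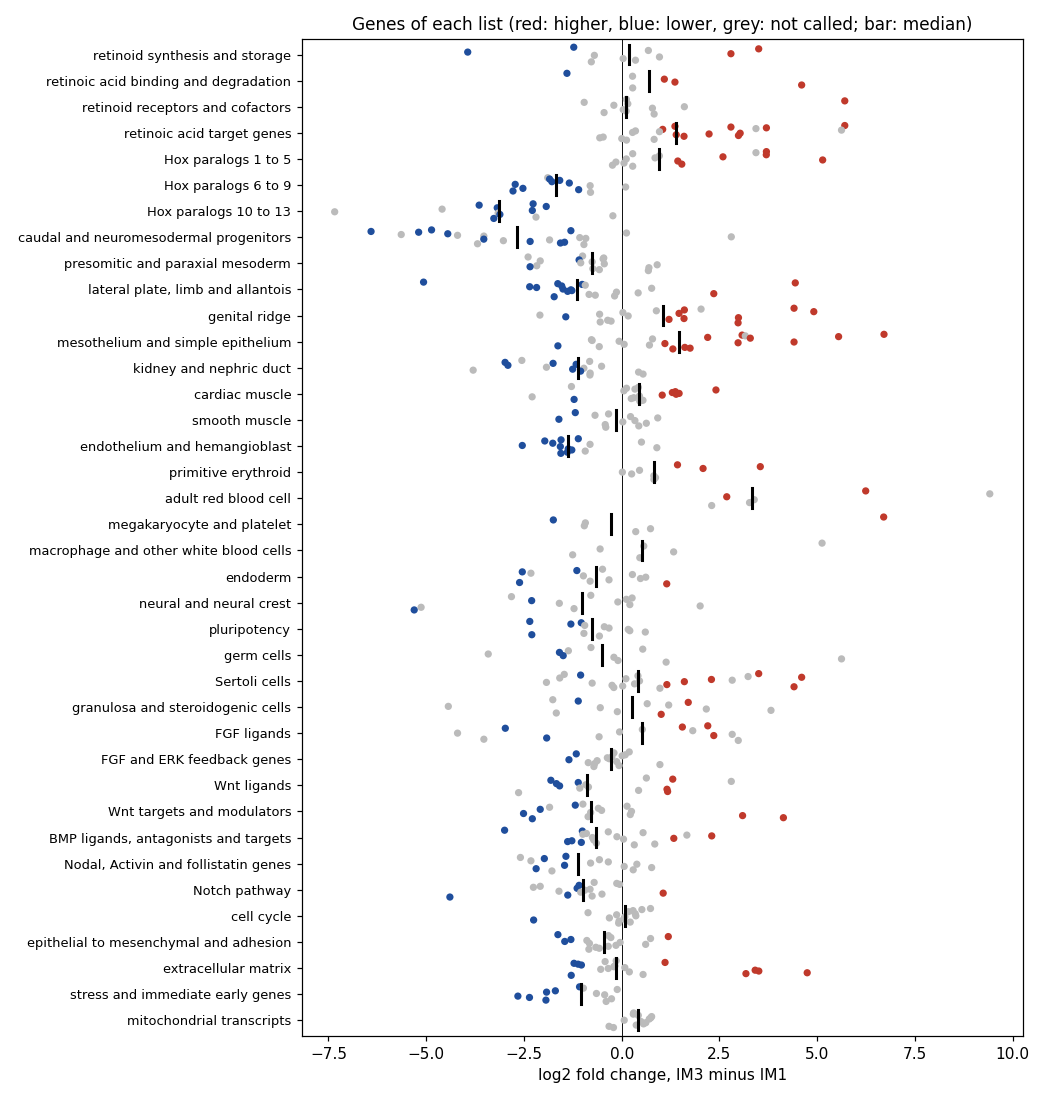
Log2 fold change of IM3 over IM1 (x axis) of the tested genes of 38 lists, 1 point a gene, red where called higher, blue where called lower and grey where not called, with a bar at the median of each list. The bars lie furthest left for Hox paralogs 10 to 13 (-3.14) and caudal progenitors (-2.68) and furthest right for adult red blood cell genes (3.33), mesothelium (1.46) and retinoic acid target genes (1.38).

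Several of the 15 largest changes in each direction, by the naming rule, stood in no list. *Zfp804a*, a zinc finger gene, had 4.39, 4.94 and 2.49 in IM1 and 353, 352 and 368 in IM3 (log2 fold change 6.44 ± 0.35 (SE), adjusted p 3.3e-14). *Slc4a9*, an anion exchanger, had 8.79, 3.53 and 0.829 and 344, 315 and 248, and *Csn3*, a casein gene, 29.0, 4.24 and 0.829 and 737, 700.4 and 773. IM1 replicate 1 was the highest of its group in *Csn3*, *Ppbp*, *Slc4a9* and *Upk3b*. *Kcna5*, a potassium channel, had 26.4, 10.6 and 9.94 and 531, 641 and 585, *Ppp2r2b* 33.4, 48.7 and 39.8 and 1279, 1589.6 and 1396, and the glutamate receptor *Gria1* 20.2, 22.6 and 16.6 and 556, 565 and 558. With DESeq2 and an offset for gene length *Gria1* was not called (4.66). All 6 were higher in every group with retinoic acid than in IM1, with IM2 means of 161, 266, 1448, 231, 345 and 264 in the order named.

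Among the falls, *Nptx1*, a neuronal pentraxin, went from 1108, 1952 and 1861 to 46.2, 37.2 and 39.2 (log2 fold change -5.31 ± 0.19 (SE), adjusted p 7.4e-18). *Cbln4* went from 448, 605 and 604 to 19.9, 20.8 and 20.3, with a mean over all libraries (101) so near the minimum that its call was lost without any 1 of the IM1 libraries and with DESeq2. *Pcsk1n*, *Igfbp7*, *Adgra1*, *Sall3* and *Pi16* fell by 4.57, 4.35, 4.31, 4.11 and 3.80. *Stra6l*, a relative of the retinol receptor gene *Stra6*, went from 322, 275 and 273 to 9.45, 25.3 and 17.4. *Krt79* had 526, 1109 and 1032 in IM1 and 84.0, 75.8 and 20.3 in IM3, a wide spread within each group. In IM5 *Pcsk1n*, *Adgra1* and *Igfbp7* averaged closer to IM1 than to IM3 (916 against 1298, 832 against 1147 and 908 against 1416), and *Cbln4* did not (23.3 against 552).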

How the data were processed

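RNA-seq of 27 libraries was used, 3 for each of 9 groups (TRIzol RNA, TruSeq V2, paired-end reads of 75 bases). The authors trimmed reads with Cutadapt 1.9.1, aligned them to GRCm38 with STAR 2.5.2a and estimated expected counts and TPM per gene with RSEM 1.3.0, and these deposited values were used. The expected counts were rounded, and effective lengths, deposited beside them by the authors, entered 1 alternative. TPM served only for the red blood cell sum. Whether counting used strand is not given in the sources used here. Libraries were fitted together in edgeR 4.0.16 (R 4.3.3) by the quasi-likelihood test with TMM scaling, filterByExpr and Benjamini-Hochberg adjustment, and IM3 was contrasted with IM1. Normalized counts are scaled to the mean effective library size, and errors are SE of the fit or SD of 3 libraries. Genes were called where the fold reached 2, the adjusted p was no higher than 0.01 and the normalized count averaged 100 or more across the libraries and within IM1 or IM3. In counts simulated from the fit's own spread, with 200 genes changed 3-fold or 6-fold, the fit recovered those genes. The simulated counts held no GC trend and no change near 2-fold, so they cannot show how calls of those kinds fare. A level of 3 counts over the group was the floor for a group at 0. The IM1 libraries held 67899332 to 84876603 fragments and the IM3 libraries 39365494 to 55640100, so low counts are less precise in IM3. P-values weigh each difference against the spread between replicates, estimated over all 9 groups and not in IM1 and IM3 alone. The replicates are taken to be of 1 clone. The GENCODE M21 annotation of GRCm38 matched 48435 of 48795 genes, and promoters came from RefSeq (GRCm38.p6).

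The genes named are *Upk3b*, *Wt1*, *Sox3* and *Tbx4*, the 15 largest rises and 15 largest falls among called protein-coding genes whose libraries did not overlap and of whose exon length under 50% lay in other genes, all members of the retinoid, Hox and caudal lists, and of each other list up to 6 called members with the largest change or a defining gene that was low or not called. Further members of those lists were named after their values were seen. The comparison and the 38 lists were chosen with earlier results of these data known. Of the list members, 17 were too low to test. Alternatives were DESeq2 1.42.0, other scaling, filters and thresholds, fewer groups in the fit, a GC offset, the replicate block and leaving out each replicate. A few list members counted in their lists are not reported here by name.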

Additional observations from a re-analysis of the deposited data

How the results depend on the processing

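The 1321 calls (545 higher, 776 lower) came to 1235 to 1353 under another scaling, DESeq2 with or without an offset for gene length, no low-count filter, fewer groups in the fit, a GC offset or an adjusted p under 0.05, and to 1278 to 1371 (530 to 578 higher, 725 to 815 lower) with 1 replicate left out. They moved with the thresholds, as these are built to do: without the count minimum 2497 genes passed (1077 higher, 1420 lower), without a minimum fold 7198 (3591 higher, 3607 lower) and at a fold of at least 4, 332 (177 higher, 155 lower). The GC difference of -0.33 was -0.18 with GC split at the median, -0.43 over genes with a mean count of at least 100 and -0.39 to -0.26 with a replicate left out. The red blood cell sum was 12.1 CPM higher in IM3 (8.88 to 15.6 with a replicate left out) and 45.9 higher in TPM. With the GC offset 185 calls were lost and 99 gained. It moved 8 of 76 counts of list members called by over 1.5 times: BMP falls from 5 to 2, matrix falls from 4 to 2, paraxial rises from 0 to 1 and falls from 2 to 1, smooth muscle rises from 0 to 1, Sertoli falls from 1 to 0, and ovarian and steroidogenic rises from 2 to 1 and falls from 1 to 0. Libraries with the same number did not all deviate together (correlations of -0.01, 0.17 and 0.18). Between IM1 replicate 2 and IM3 replicate 3 the correlation was -0.17, and between IM1 replicate 3 and IM3 replicate 2 it was -0.20. The numbers were not taken as pairs in the main fit, and a block for them was an alternative. With the replicate block 1321 genes were called (544 higher, 777 lower), 1317 of them as without it, and 1237 with the block and the GC offset. Depth limits genes near 0, in IM3 more than in IM1.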
